A study of Mus musculus with 4 samples.

Results

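The genes described here are 52 genes of mitosis and chromosome segregation, measured as messenger RNA in HT22 cells. They were chosen by name, as the rows of the deposited count table whose gene name is on the list, out of 16846 genes in the table. All 52 were in the table, and all 52 were among the 12115 genes with enough counts to be tested. HT22 is an immortalised line derived from mouse hippocampal neurons. The study lowered and raised Ntoco, a long noncoding RNA that its title links to ferroptosis and traumatic brain injury, and asked which signalling pathways go with it. The sample titles number the cells from HT22 to HT25, 1 number per group, while the cell line field reads HT22 throughout, and they are taken as 1 line here. There were 4 groups: cells with a short hairpin RNA (shRNA) against Ntoco, cells with a control shRNA, cells with a Ntoco construct labelled Lv, and cells with the empty vector. The labels list 1 sample per group, and the tables hold 2 numbered columns per group, which are called library 1 and library 2 here. The knockdown and overexpression columns write AK for the target, an abbreviation without an explanation in the labels, and reading these columns as the Ntoco groups rests on it. The columns name the vector pcDNA, so whether the overexpression and vector cells carried a lentivirus or a plasmid is uncertain, as is how the vector cells and the shRNA cells differ in delivery. The sources used here do not give culture time, selection or cell density, and 0 rows of the table were named Ntoco, so the change in Ntoco itself was not measured.

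Mitosis separates the duplicated chromosomes into daughter cells. Cdk1 bound to a B-type cyclin drives entry, the kinetochores built on the centromeres capture spindle microtubules, and the spindle assembly checkpoint holds the cell until every chromosome is attached. The anaphase-promoting complex, a ubiquitin ligase, then marks securin and cyclin B for destruction, separase cuts the cohesin that holds sister chromatids together, and the central spindle guides cytokinesis. Transcription of most of these genes is periodic and peaks late in the cell cycle. It depends on the DREAM and MuvB complexes, which bind a promoter element named the cell cycle genes homology region (CHR), often beside CCAAT boxes bound by the factor NF-Y. In a growing line such as HT22 their RNA is therefore high, while neurons of the brain, which do not divide, express them little.

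Promoter sequences are shown first, because a shared motif is a property of these genes that the list of names did not use. RefSeq windows of 300 bases, 250 before and 50 after the listed transcription start on GRCm38.p6, could be matched to 42 of the 52 genes. They are printed 5′ to 3′ on the gene's strand. Capitals mark the CHR letters TTTGAA and the CCAAT box, each in either orientation. Fbxo5 (chr10:5805416-5805715, minus strand) and Cdca5 (chr19:6084847-6085146, plus strand) had the smallest p-values of the 52 genes in the overexpression comparison below. Ect2 (chr3:27153829-27154128, minus strand, the first of its listed starts) had the smallest p-value of the 52 in the knockdown comparison. Ccnb2 (chr9:70421505-70421804, minus strand) varied most over the libraries and Cdk1 (chr10:69352863-69353162, minus strand) least. Plk4 (chr3:40799701-40800000, plus strand) held neither motif.
Fbxo5: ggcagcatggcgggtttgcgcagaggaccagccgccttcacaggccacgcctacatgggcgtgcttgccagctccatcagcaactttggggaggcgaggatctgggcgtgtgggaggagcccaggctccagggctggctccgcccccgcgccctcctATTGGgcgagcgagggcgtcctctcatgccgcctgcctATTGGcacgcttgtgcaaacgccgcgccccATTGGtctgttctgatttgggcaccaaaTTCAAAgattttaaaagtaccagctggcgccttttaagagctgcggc
Cdca5: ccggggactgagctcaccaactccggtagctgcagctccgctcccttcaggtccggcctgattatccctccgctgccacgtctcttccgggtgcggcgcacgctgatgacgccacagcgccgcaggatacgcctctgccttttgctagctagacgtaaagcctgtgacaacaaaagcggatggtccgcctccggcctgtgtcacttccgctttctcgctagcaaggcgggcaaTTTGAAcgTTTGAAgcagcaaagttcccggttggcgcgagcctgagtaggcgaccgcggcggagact
Ect2: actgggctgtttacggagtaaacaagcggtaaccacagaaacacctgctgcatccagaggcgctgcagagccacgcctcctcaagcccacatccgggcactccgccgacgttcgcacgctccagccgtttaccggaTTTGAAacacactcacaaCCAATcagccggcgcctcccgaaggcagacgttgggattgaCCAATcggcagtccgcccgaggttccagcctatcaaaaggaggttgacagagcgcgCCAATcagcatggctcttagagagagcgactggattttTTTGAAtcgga
Ccnb2: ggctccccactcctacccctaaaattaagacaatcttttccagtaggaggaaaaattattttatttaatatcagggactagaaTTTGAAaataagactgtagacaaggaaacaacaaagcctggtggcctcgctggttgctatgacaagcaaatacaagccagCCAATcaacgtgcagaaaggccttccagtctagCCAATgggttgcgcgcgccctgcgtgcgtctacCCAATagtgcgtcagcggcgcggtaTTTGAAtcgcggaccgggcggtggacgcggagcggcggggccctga
Cdk1: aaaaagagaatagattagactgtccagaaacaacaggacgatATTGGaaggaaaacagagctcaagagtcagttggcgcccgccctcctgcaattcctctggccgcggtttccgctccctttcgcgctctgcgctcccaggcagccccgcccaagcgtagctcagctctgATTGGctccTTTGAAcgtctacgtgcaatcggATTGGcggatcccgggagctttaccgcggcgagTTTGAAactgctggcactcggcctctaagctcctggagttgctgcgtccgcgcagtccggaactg
Plk4: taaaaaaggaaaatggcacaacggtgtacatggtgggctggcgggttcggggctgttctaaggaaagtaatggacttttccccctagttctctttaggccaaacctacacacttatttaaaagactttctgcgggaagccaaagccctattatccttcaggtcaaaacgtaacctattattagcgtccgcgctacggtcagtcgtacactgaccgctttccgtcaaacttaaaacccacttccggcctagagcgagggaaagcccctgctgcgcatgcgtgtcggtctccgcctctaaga

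The CHR letters TTTGAA, searched on both strands, were found in 29 of the 42 windows, which is 69.0%. They were found in 12.3% of the windows of 9674 tested genes of all kinds, and in 51.4% of 72 windows of other mitotic genes. In windows of DNA replication genes, which are transcribed earlier in the cell cycle, 4 of 31 held them (12.9%). The CCAAT box was in 30 of the 42 windows (71.4%), against 39.6% of all windows, and CHR and CCAAT box stood together in 25 (59.5%), against 5.40%. The letters TTTCCCGC, a form of the site of E2F factors, were in 1 of the 42 windows (2.38%), that of Ncapg, in 19.4% of the DNA replication windows and in 2.15% of all windows. No motif searched contains another. In the printed windows Cdca5 shows a pair of CHR letters a few bases apart and no CCAAT box, Ccnb2 shows 3 CCAAT boxes, and Cdk1 shows 2 CHR matches among 3 CCAAT boxes. A variant, TTCGAA, was in 4 of the 42 windows (9.52%), against 2.21% of all windows, and Cdc25b and Bub1 held it without TTTGAA. The highest library stood over the lowest by a median of 2.92-fold in the 29 genes with the letters TTTGAA and by 2.91-fold in the 13 without. Their median log2 ratios were -0.48 and -0.42 under knockdown, 0.86 and 0.71 under overexpression and -0.82 and -0.61 for the vector against control shRNA. These differences were not tested. Such a match describes letters and not a binding site.

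**Figure D1:**
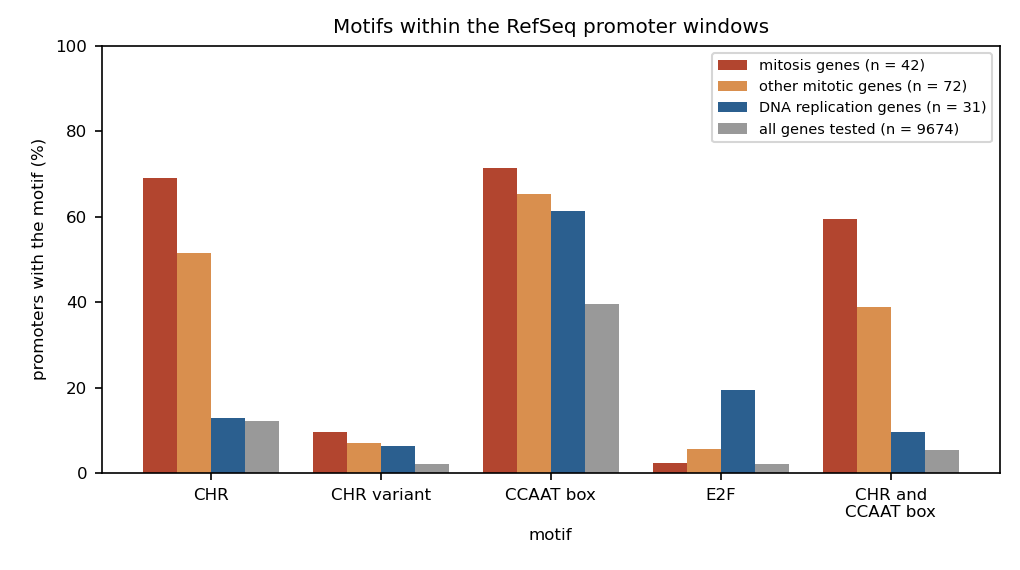
Share of RefSeq promoter windows (%, y axis) that hold each motif (x axis), for the mitosis genes, other mitotic genes, DNA replication genes and all genes tested. The CHR bar stands at 69.0% for the mitosis genes and at 12.9% for the DNA replication genes, close to the 12.3% of all genes.

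Each library held 18452588 to 19859041 counts, and the 52 genes had 137 to 13336 counts per library, so the spread between libraries and not counting error limits the precision. The 2 libraries of a group differed far beyond counting noise, where counting noise alone gives a chi-square of about 1 per gene. Over 10486 to 10608 genes of all kinds it was 62.1 to 156 per gene. Over the 52 genes it was 475 in the knockdown pair, 324 in the vector pair, 83.6 in the control shRNA pair and 62.5 in the overexpression pair. Whether they are separate cultures is not stated in the labels, and the p-values therefore cover the spread among these libraries only, part or all of which may be technical. Of 15 markers of neurons 9 were in the table and 2, Eno2 and Syp, could be tested; the list summed to 12.2 to 26.8 CPM (counts relative to library size, scaled by TMM factors), and Map2 and Tubb3, defining neuronal genes, were at or near 0. Mitosis genes were abundant in the control shRNA cells. Their median level was 35.7 FPKM (counts scaled by gene length and library total), against 9.63 for all genes tested, and 51 of the 52 lay above that. Racgap1 at 163 FPKM, Ube2c at 161 and Top2a at 126 led in level per length, and Cenpf at 7.74 was last.

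One library of the knockdown group and one of the vector group stood apart in these genes, and the medians, the counts at an unadjusted p and the log2 ratios of the 52 genes printed with an SE are given below with and without the one that enters the comparison. The median of the 52 genes relative to the control shRNA mean (log2) was -0.091 in knockdown library 1 and -1.04 in knockdown library 2, against 0.17 and -0.19 in the control shRNA libraries. It was 0.16 and -0.12 in the overexpression libraries, against -1.23 in empty vector library 1 and -0.49 in empty vector library 2. Knockdown library 2 and empty vector library 1 were the 2 lowest of the 8 libraries in 47 of the 52 genes, which holds for 13.2% of all genes tested. Levels under 50% of the control shRNA mean were found for 28 of the 52 genes in knockdown library 2 and 41 in empty vector library 1, against 1 in knockdown library 1 (Pbk) and 4 in empty vector library 2 (Incenp, Espl1, Cdca5 and Kif20a). Of all genes tested 7.10%, 11.4%, 3.33% and 3.87% were that low in the same 4 libraries. The summed level of the 52 genes was 6911 and 3504 CPM in the knockdown libraries, against 8406 and 6584 CPM in the control shRNA libraries. For overexpressing cells it came to 7874 and 6762 CPM, against 3147 and 5536 CPM for vector cells. A lower value in bulk RNA can mean fewer dividing cells or less of the RNA in each, and these cannot be told apart.

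The medians of some marker lists of other cells were lowest in the same libraries, with members that did not follow, and those of other lists were not. The 7 tested markers of fibroblasts and meninges were Col1a1, Col1a2, Col3a1, Fn1, Vim, Pdgfra and S100a4. They had a median (log2, relative to the control shRNA mean) of 0.49 and -1.13 in the knockdown libraries, against -0.01 and 0.01 in the control shRNA libraries. They had -0.26 and -0.60 in the overexpression libraries, against -1.35 and -0.56 in the vector libraries. Their summed level was 3536 CPM in empty vector library 1 and 3244 CPM in knockdown library 2, and 5892 to 10174 CPM in the other libraries. Of the 10 listed, Lum was at 0, Dcn was near 0 and Thy1 had no row. In knockdown library 2 each of the 7 was below both control shRNA libraries. In empty vector library 1 Col1a1, Col1a2, Col3a1, Vim and S100a4 were. Fn1 (1165 CPM, against 915 and 1178 CPM) and Pdgfra (53.9 CPM, against 50.4 and 56.4 CPM) were inside the control range there. Under overexpression Fn1 had the 1 negative log2 ratio of the 7 (-0.75, SE 0.31). The 5 tested astrocyte markers had medians of -1.01 in knockdown library 2 and -0.96 in empty vector library 1, and between -0.30 and 0.07 in the other libraries, with a summed level of 42.4 to 113 CPM. Aldh1l1, Gja1 and S100b were lowest in those 2 libraries, and Slc1a2 was inside the control range in both. Gfap went the other way, with 1.23 and 1.18 CPM there, its highest, against 0.52 and 0.73 CPM in the control shRNA libraries. Of 8 microglia and macrophage markers 4 were tested, P2ry12 had no row, and Ptprc, which marks all white blood cells, was at 0 in all libraries. The medians of the 4 were -0.22 and -1.34 in the knockdown libraries, against 0.14 and -0.18 in the control shRNA libraries. They were 0.0030 and -0.38 in the overexpression libraries, against -1.40 and -0.40 in the vector libraries. The summed level was 11.5 to 19.0 CPM and was lowest in the overexpression libraries (12.1 and 11.5 CPM). In knockdown library 2 and empty vector library 1 Csf1r and Tmem119 were below both control shRNA libraries, and Cx3cr1 was inside their range. Cd68, the most abundant of the 4, was not lower there, with 13.7 and 11.6 CPM, against 11.5 and 11.9 CPM in the control shRNA libraries. The 4 tested oligodendrocyte markers had -0.14 and -0.30 in the knockdown libraries, against 0.03 and -0.03 in the control shRNA libraries, and -0.51 and -0.14 in the overexpression libraries, against -0.52 and 0.31 in the vector libraries, with a summed level of 193 to 445 CPM. The 5 tested markers of endothelium and pericytes had -0.24 and 0.30 in the knockdown libraries, against -0.05 and 0.04 in the control shRNA libraries. These markers had -0.65 and -0.01 in the overexpression libraries, against 0.76 and 0.73 in the vector libraries. Their summed level was 112 to 263 CPM, lowest in empty vector library 1 (112 CPM) and knockdown library 2 (125 CPM). In knockdown library 2 and empty vector library 1 Pdgfrb had 119 and 107 CPM, against 241 and 256 CPM in the control shRNA libraries. Flt1 had 3.40 and 2.46 CPM there, against 6.97 and 5.24 CPM. Cdh5, Tek and Vwf, at 0.54 to 1.78 CPM there, were above both control shRNA libraries. The part of these lists in the results below was not tested.

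**Figure D2:**
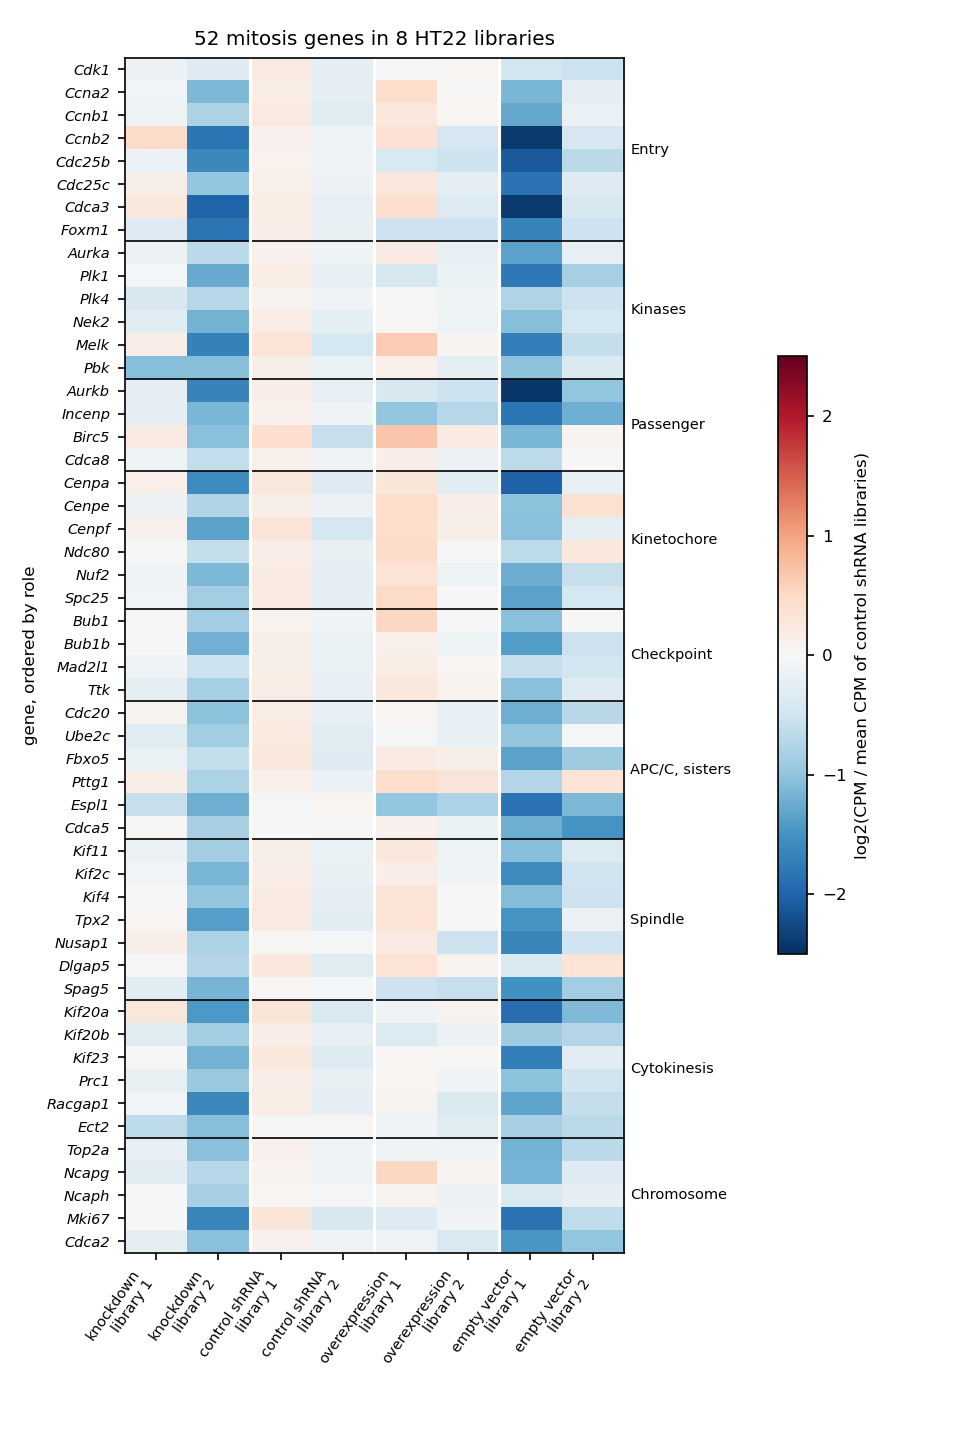
Level of each of the 52 genes (rows, ordered by role) in each of the 8 libraries (columns), as log2 of CPM over the mean CPM of the control shRNA libraries; blue is lower and red higher. Knockdown library 2 and empty vector library 1 are blue in nearly every row, with medians of -1.04 and -1.23, while knockdown library 1 has a median of -0.091.

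In cells with the shRNA against Ntoco all 52 genes had a negative log2 ratio to control shRNA cells in edgeR's quasi-likelihood fit, with a median of -0.48 and a range of -1.06 (Pbk) to -0.23 (Cdk1). The median of all genes tested was 0.0055. With p-values adjusted over all genes by Benjamini and Hochberg and a threshold of 0.05, 0 of the 52 were called by edgeR (lowest adjusted p = 0.992), as were 0.0% of all genes. DESeq2 called 0 of the 52 (lowest adjusted p = 0.166) and 0.124% of all genes. At an unadjusted edgeR p under 0.05, 4 of the 52 were lower (7.69%), against 1.61% of all genes, and 0 were higher, against 1.51%. In 18 of the 52 (34.6%) both knockdown libraries lay below both control shRNA libraries, against 14.1% of all genes, and in 0 both lay above, against 15.1%. The size rests on knockdown library 2: the median was -0.091 without it, with 17 of the 52 genes positive and 2 at an unadjusted p under 0.05 (3.20% of all genes), and -1.05 without knockdown library 1. The 17 were Ccnb2, Cdc25c, Cdca3, Melk, Birc5, Cenpa, Cenpf, Bub1, Bub1b, Cdc20, Pttg1, Cdca5, Tpx2, Nusap1, Kif20a, Kif23 and Mki67. Without knockdown library 1 all 52 genes were negative. In knockdown library 1 alone, 4 genes were under 80% of the control shRNA mean, Plk4, Pbk, Espl1 and Ect2, a smaller share than the 18.3% of all genes, and 18 of the 52 were above the mean.

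In cells with the Ntoco construct all 52 genes had a positive log2 ratio to empty vector cells, with a median of 0.81 and a range of 0.19 (Dlgap5) to 1.46 (Kif20a), where the median of all genes was -0.0059. EdgeR called 0 of the 52 (lowest adjusted p = 0.598) and 0.0% of all genes, and DESeq2 called 0 of the 52 (lowest adjusted p = 0.122) and 0.00825% of all genes. At an unadjusted p under 0.05, 17 of the 52 were higher (32.7%), against 3.53% of all genes. Both overexpression libraries lay above both vector libraries in 42 of the 52 (80.8%), against 24.1% of all genes, and below both in 0, against 23.1%. The 10 that overlapped were Ccnb2, Foxm1, Cdca8, Cenpa, Cenpe, Ndc80, Ube2c, Pttg1, Nusap1 and Dlgap5. Without empty vector library 1 the median was 0.46, with 48 genes positive and 2 at an unadjusted p under 0.05, against 3.08% of all genes in either direction. The 4 then negative were Cenpe, Ndc80, Ube2c and Dlgap5. Without empty vector library 2 the median was 1.29, with 44 genes at that level, against 10.2% of all genes.

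Overexpression library 1 lay inside or above the range of the control shRNA libraries in 41 of the 52 genes (64.2% of all genes), and overexpression library 2 in 32 (63.9% of all genes). Set against control shRNA cells, the empty vector cells had a negative log2 ratio in 51 of the 52 genes and 0.03 in Dlgap5, with a median of -0.81 and a lowest value of -1.54 (Aurkb); the median of all genes was -0.0029. EdgeR called 0 of the 52 (lowest adjusted p = 0.337) and 0.0% of all genes, and 18 of the 52 were lower at an unadjusted p under 0.05 (34.6%), against 6.1% of all genes. DESeq2 called 6 of the 52 lower (11.5%), against 0.685% of all genes: Incenp, Fbxo5, Espl1, Cdca5, Spag5 and Cdca2. Both vector libraries lay below both control shRNA libraries in 39 of the 52 (75.0%), against 26.5% of all genes. Without empty vector library 1 the median was -0.49, with 6 genes at an unadjusted p under 0.05 (5.68% of all genes), and without empty vector library 2 it was -1.23. The ratio was negative in 46 genes without empty vector library 1 and in all 52 without empty vector library 2. The vector comparison shares its vector libraries with the overexpression comparison and its control shRNA libraries with the knockdown comparison, so they are not independent. The vector and control shRNA cells may also differ in delivery, which cannot be told apart from the vector.

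The difference between the overexpression effect and the knockdown effect, tested as an interaction, was positive in all 52 genes, with a median of 1.34 and a range of 0.52 (Dlgap5) to 1.91 (Melk). EdgeR called 0 of the 52 (lowest adjusted p = 0.650) and 0.0% of all genes, and 28 of the 52 were positive at an unadjusted p under 0.05 (53.8%), against 3.57% of all genes. DESeq2 called 1 of the 52, Ect2 (in edgeR log2 difference 1.40, SE 0.29; 1.13 without both libraries that stood apart; DESeq2 adjusted p = 0.0442), and 0.066% of all genes in that direction. Without both knockdown library 2 and empty vector library 1, a choice made after seeing the data, the median difference was 0.56, with 48 genes positive and 4 negative. The medians were then -0.092 for knockdown (35 negative, 17 positive), 0.46 for overexpression (48 positive, 4 negative) and -0.49 for the vector (46 negative, 6 positive), and 3, 6 and 15 genes had an unadjusted p under 0.05, against 3.86%, 6.85% and 10.9% of all genes. In the difference 9 of the 52 did, against 2.55%.

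**Figure D3:**
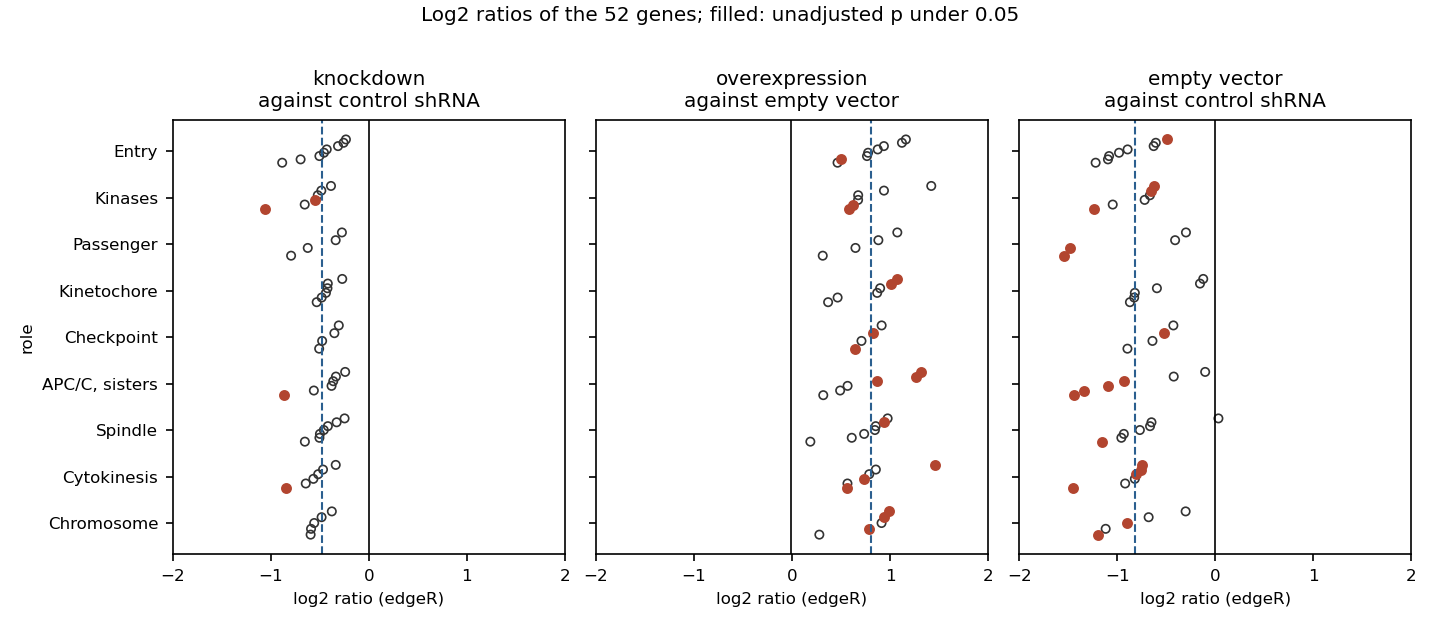
Log2 ratio (edgeR, x axis) of each of the 52 genes, by role (y axis), in the knockdown, overexpression and vector comparisons; filled points have an unadjusted p under 0.05, the black line is the median of all genes and the dashed line that of the 52. Every point lies left of 0 in the knockdown panel and right of 0 in the overexpression panel, with 4 and 17 filled, and Dlgap5 alone lies right of 0 in the vector panel.

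Among the 8 genes of mitotic entry, Cdk1, the kinase that drives it, was the most even. It had 100.3 and 88.2 CPM in knockdown cells, against 127 and 94.1 CPM in control shRNA cells, and the groups overlapped (log2 ratio -0.23, SE 0.20; -0.14 without knockdown library 2, and 0.0020 without control shRNA library 1). In overexpressing cells it had 107 and 114 CPM, against 80.9 and 76.0 CPM in vector cells, with both libraries above (log2 ratio 0.50, SE 0.20; 0.54 without empty vector library 1; edgeR, unadjusted p = 0.0419). Its highest library was 1.68-fold over its lowest. Ccnb2, a B-type cyclin partner of the same kinase, spanned 7.36-fold, the widest of the 52. Ccnb2 had 116 and 23.3 CPM in knockdown cells, against 89.1 and 77.1 CPM in control shRNA cells, so that one knockdown library was above and the other below both controls. It had 107 and 61.8 CPM in overexpressing cells, against 15.7 and 62.0 CPM in vector cells, and overexpression library 2 and vector library 2 were level. The other B-type cyclin, Ccnb1, had 189 and 119.6 CPM in knockdown cells, against 248 and 168 CPM in control shRNA cells (log2 ratio -0.43, SE 0.40; -0.14 without knockdown library 2), and 248 and 216 CPM in overexpressing cells, against 85.2 and 188 CPM in vector cells (log2 ratio 0.77, SE 0.40; 0.31 without empty vector library 1). Foxm1, the transcription factor that acts with MuvB late in the cell cycle, had 161 and 56.4 CPM in knockdown cells, against 225 and 177 CPM in control shRNA cells (log2 ratio -0.88, SE 0.51; -0.32 without knockdown library 2). Both knockdown libraries were below both controls. It had 139 and 141 CPM in overexpressing cells, against 63.0 and 140.2 CPM in vector cells (log2 ratio 0.46, SE 0.51; 0.0026 without empty vector library 1), and these overlapped. Ccna2, the A-type cyclin of S phase and early mitosis, Cdc25b and Cdc25c, the phosphatases that activate Cdk1, and Cdca3, which triggers the loss of the Cdk1 inhibitor Wee1, had log2 ratios of -0.70 (Cdc25b) to -0.31 (Cdc25c) under knockdown and 0.78 (Cdc25b) to 1.16 (Cdca3) under overexpression. Reads of Ccna2 and Foxm1 may include reads of Exosc9 and Tex52, whose spans overlap theirs, since no source used here gives the strand setting of the counting; the same holds for Aurka, Cdc20, Nusap1, Kif20a, Prc1 and Ncapg and their neighbours.

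The 6 mitotic kinases held 2 of the 4 genes lower at an unadjusted edgeR p under 0.05 under knockdown, where 1.61% of all genes were. Pbk, a kinase active in dividing cells, had 80.5 and 80.7 CPM in knockdown cells, against 186 and 149.9 CPM in control shRNA cells (log2 ratio -1.06, SE 0.26; -1.06 without knockdown library 2; edgeR, unadjusted p = 0.00369). It was the one gene that was not lower in knockdown library 2 than in knockdown library 1. In overexpressing cells it had 182 and 144 CPM, against 82.6 and 129.8 CPM in vector cells (log2 ratio 0.62, SE 0.26; 0.33 without empty vector library 1). Plk4, which starts centriole duplication, had 70.4 and 56.4 CPM in knockdown cells, against 98.4 and 87.1 CPM in control shRNA cells (log2 ratio -0.55, SE 0.20; -0.40 without knockdown library 2), and 92.8 and 86.3 CPM in overexpressing cells, against 55.3 and 64.6 CPM in vector cells (log2 ratio 0.58, SE 0.20; 0.47 without empty vector library 1). No pair of groups overlapped in either of these comparisons, and the vector libraries overlapped the knockdown libraries. Plk1, the kinase that acts from mitotic entry to cytokinesis, had 106 and 45.5 CPM in knockdown cells, against 123 and 94.7 CPM in control shRNA cells (log2 ratio -0.52, SE 0.44; -0.034 without knockdown library 2). It had 80.0 and 97.2 CPM in overexpressing cells, against 31.5 and 60.9 CPM in vector cells (log2 ratio 0.94, SE 0.44; 0.54 without empty vector library 1). The Plk1 groups overlapped under knockdown and not under overexpression. Nek2, which separates the centrosomes, had a log2 ratio of -0.65 (SE 0.34; -0.27 without knockdown library 2) under knockdown, Aurka, the kinase of spindle poles, had a log2 ratio of -0.39, the smallest of these kinases, and Melk, a kinase of proliferating cells, had the largest ratio under overexpression at 1.42 (SE 0.62; 0.97 without empty vector library 1).

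The chromosomal passenger complex corrects faulty attachments, and its 4 subunits had log2 ratios of -0.79 (Aurkb) to -0.27 (Birc5) under knockdown and 0.31 (Cdca8) to 1.07 (Aurkb) under overexpression. Aurkb, the kinase, had 100.4 and 37.6 CPM in knockdown cells, against 135 and 104 CPM in control shRNA cells (log2 ratio -0.79, SE 0.54; -0.25 without knockdown library 2), and 90.9 and 82.0 CPM in overexpressing cells, against 22.0 and 60.0 CPM in vector cells (log2 ratio 1.07, SE 0.54; 0.53 without empty vector library 1). Neither comparison overlapped for Aurkb. Incenp, the scaffold that binds it, had 138 and 73.5 CPM in knockdown cells, against 175 and 151 CPM in control shRNA cells (log2 ratio -0.62, SE 0.33; -0.24 without knockdown library 2). Incenp had 83.0 and 99.3 CPM in overexpressing cells, against 46.4 and 69.9 CPM in vector cells (log2 ratio 0.65, SE 0.33; 0.38 without empty vector library 1). All 4 libraries with a vector or the Ntoco construct were thus below both control shRNA libraries, and the vector comparison gave a log2 ratio of -1.48, SE 0.33 (-1.22 without empty vector library 1; DESeq2 adjusted p = 0.00601, edgeR adjusted p = 0.337). Birc5, known as survivin, had 151 and 108 CPM in overexpressing cells, against 42.3 and 98.6 CPM in vector cells, and 109 and 45.5 CPM in knockdown cells, against 124 and 62.7 CPM in control shRNA cells. Cdca8, or borealin, had 121 and 97.6 CPM in overexpressing cells, against 68.4 and 107 CPM in vector cells, which overlapped.

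The 6 centromere and kinetochore genes had 0 members at an unadjusted edgeR p under 0.05 under knockdown, against 1.61% of all genes lower and 1.51% higher. DESeq2 called 0 of them, against 0.124% of all genes. In 0 of them the groups did not overlap, against 14.1% of all genes with both knockdown libraries below and 15.1% with both above. Cenpa, the histone variant that marks centromeres, had 96.4 and 29.7 CPM in knockdown cells, against 106 and 70.2 CPM in control shRNA cells (log2 ratio -0.48, SE 0.67; 0.13 without knockdown library 2). One knockdown library lay inside the control range. Cenpa had 108 and 72.8 CPM in overexpressing cells, against 21.6 and 77.5 CPM in vector cells (log2 ratio 0.87, SE 0.67; 0.23 without empty vector library 1), with vector library 2 above overexpression library 2. Spc25 and Nuf2, subunits of the Ndc80 complex that binds microtubules, had log2 ratios of 1.07 (SE 0.39; 0.69 without empty vector library 1) and 1.01 (SE 0.38; 0.72 without empty vector library 1) under overexpression, with unadjusted edgeR p-values of 0.0252 and 0.0311. Spc25 had 86.8 and 61.8 CPM in overexpressing cells, against 24.6 and 46.2 CPM in vector cells, with no overlap. Ndc80 itself had 109.7 and 79.9 CPM, against 51.0 and 95.9 CPM in vector cells, which overlapped, and a ratio of 0.37, the smallest of this role. Cenpe, a kinetochore motor, and Cenpf, a large coiled-coil protein of the kinetochore, had 0.47 and 0.90.

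Of the 4 checkpoint genes, Mad2l1, which inhibits the activator of the anaphase-promoting complex, was among the most even, with 1.68-fold between its highest and lowest library. It had 153 and 139.7 CPM in overexpressing cells, against 91.1 and 96.8 CPM in vector cells (log2 ratio 0.64, SE 0.21; 0.60 without empty vector library 1; edgeR, unadjusted p = 0.0167), and 125.2 and 93.7 CPM in knockdown cells, against 149 and 121 CPM in control shRNA cells (log2 ratio -0.31, SE 0.21; -0.11 without knockdown library 2). The groups were apart in the overexpression comparison and overlapped in the knockdown one. Bub1b, or BubR1, a part of the same inhibitor, had 139 and 60.3 CPM in knockdown cells, against 153 and 124 CPM in control shRNA cells (log2 ratio -0.48, SE 0.42; 0.0048 without knockdown library 2). It had 151 and 129 CPM in overexpressing cells, against 52.8 and 96.1 CPM in vector cells (log2 ratio 0.91, SE 0.42; 0.55 without empty vector library 1). Ttk, the kinase Mps1 that starts checkpoint signalling, had the ratio farthest from 0 of this role under knockdown (-0.51, SE 0.31; -0.24 without knockdown library 2), and Bub1, a kinase that recruits the checkpoint proteins, had log2 ratios of -0.35 and 0.71.

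The 6 genes around the anaphase-promoting complex and sister separation held the smallest p-values of the 52 genes in the overexpression comparison. Fbxo5, also named Emi1, an inhibitor of the complex, had 38.7 and 37.2 CPM in overexpressing cells, against 13.3 and 18.3 CPM in vector cells (log2 ratio 1.26, SE 0.29; 1.05 without empty vector library 1; edgeR, unadjusted p = 0.00248, adjusted p = 0.598). The knockdown cells had 30.1 and 22.5 CPM, against 40.4 and 27.2 CPM in control shRNA cells (log2 ratio -0.36, SE 0.28; -0.17 without knockdown library 2), and these overlapped. Cdca5, or sororin, which protects cohesion until anaphase, had 37.4 and 31.1 CPM in overexpressing cells, against 15.0 and 12.6 CPM in vector cells (log2 ratio 1.31, SE 0.31; 1.45 without empty vector library 1; edgeR, unadjusted p = 0.00285). Cdca5 was one of the 4 genes under 50% of the control shRNA mean in vector library 2, and the ratio was 1.17 to 1.45 with any one library left out. Knockdown cells had 35.7 and 19.6 CPM of Cdca5, against 35.2 and 34.6 CPM in control shRNA cells, and knockdown library 1 lay above both. Espl1, the protease separase that cuts cohesin, had 146 and 93.5 CPM in knockdown cells, against 211 and 225 CPM in control shRNA cells (log2 ratio -0.87, SE 0.29; -0.58 without knockdown library 2; edgeR, unadjusted p = 0.0190). Espl1 had 112 and 126 CPM in overexpressing cells, against 60.9 and 99.9 CPM in vector cells (log2 ratio 0.57, SE 0.29; 0.26 without empty vector library 1). As with Incenp, all 6 libraries other than the control shRNA libraries were below both of those, and the vector comparison gave a log2 ratio of -1.44, SE 0.30 (-1.13 without empty vector library 1; DESeq2 adjusted p = 0.00278, edgeR adjusted p = 0.337). Pttg1, or securin, the inhibitor that holds separase until anaphase, had 88.8 and 81.8 CPM in overexpressing cells, against 39.0 and 82.3 CPM in vector cells, and 72.7 and 37.6 CPM in knockdown cells, against 71.1 and 59.2 CPM in control shRNA cells. Both overexpression libraries, vector library 2 and, narrowly, knockdown library 1 lay above both control shRNA libraries of Pttg1. Cdc20, the activator of the complex in mitosis, had 154 and 72.7 CPM in knockdown cells, against 166 and 128 CPM in control shRNA cells (log2 ratio -0.38, SE 0.36; 0.061 without knockdown library 2), and 153 and 128 CPM in overexpressing cells, against 62.9 and 91.3 CPM in vector cells (log2 ratio 0.87, SE 0.36; 0.62 without empty vector library 1). Ube2c, its ubiquitin-conjugating enzyme, had log2 ratios of -0.56 and 0.32.

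**Figure D4:**
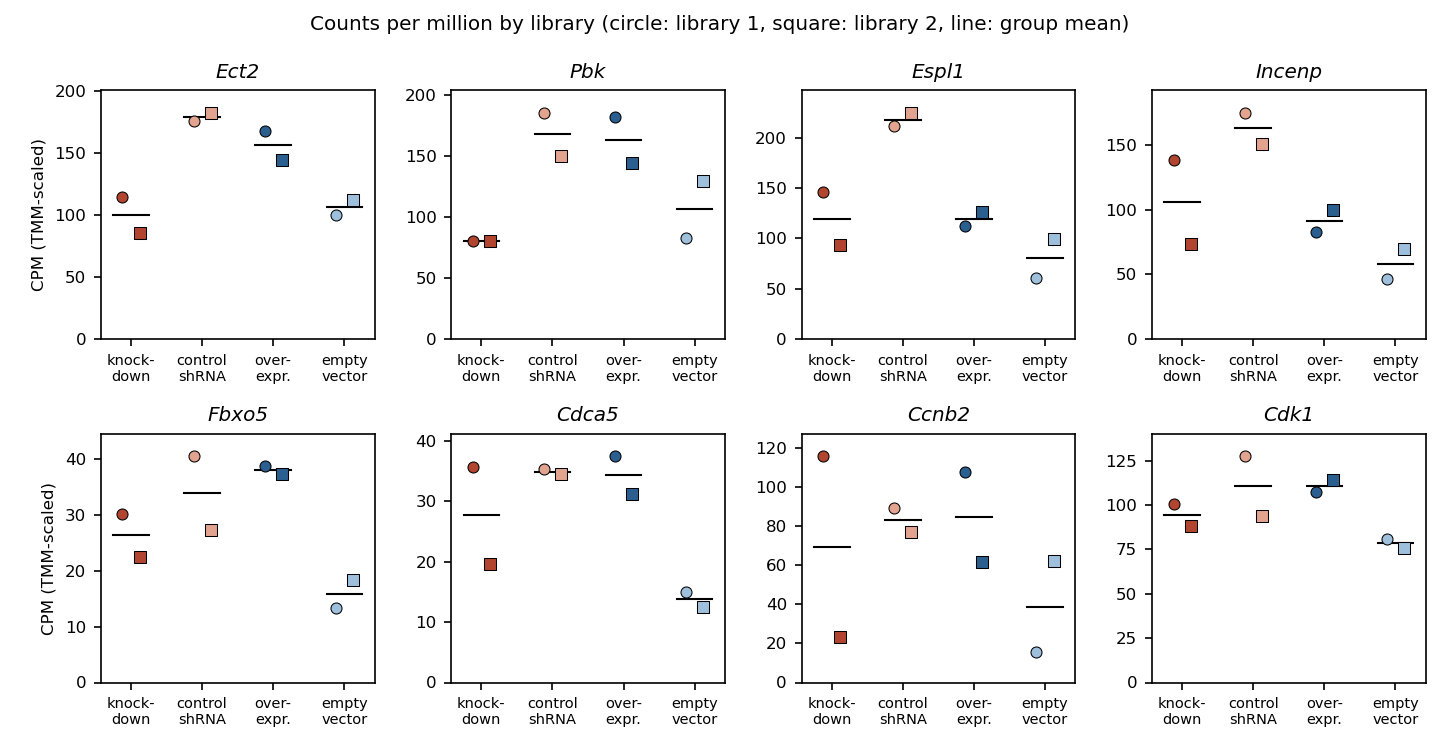
CPM (y axis, from 0) of 8 of the genes in knockdown, control shRNA, overexpression and empty vector cells (x axis); circles are library 1, squares library 2 and lines group means. Ect2 and Pbk show both knockdown libraries below both controls, Espl1 and Incenp show all libraries below the control shRNA libraries, Ccnb2 shows libraries of a group far apart, and Cdk1 stays between 76.0 and 127 CPM.

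The 7 spindle motors and microtubule-associated proteins had 1 member higher at an unadjusted edgeR p under 0.05 under overexpression, where 3.53% of all genes were. It was Kif4, a chromosome-bound motor, with a log2 ratio of 0.94 (SE 0.36, edgeR; 0.68 without empty vector library 1). Kif11, the motor that pushes spindle poles apart, had 130.4 and 79.3 CPM in knockdown cells, against 160.0 and 128 CPM in control shRNA cells (log2 ratio -0.46, SE 0.33; -0.14 without knockdown library 2). It had 173 and 133 CPM in overexpressing cells, against 69.2 and 114 CPM in vector cells (log2 ratio 0.74, SE 0.33; 0.42 without empty vector library 1). The groups overlapped under knockdown and not under overexpression. Dlgap5, also named HURP, which stabilises microtubules near chromosomes, had the smallest ratio of the 52 under overexpression, with 99.9 and 84.2 CPM in overexpressing cells, against 61.6 and 100.1 CPM in vector cells (log2 ratio 0.19, SE 0.34; -0.12 without empty vector library 1). Vector library 2 was its highest library of all. Spag5, or astrin, which holds sister kinetochores and spindle poles together, had 108 and 58.8 CPM in knockdown cells, against 134 and 128 CPM in control shRNA cells (log2 ratio -0.65, SE 0.32; -0.28 without knockdown library 2), and 90.8 and 88.2 CPM in overexpressing cells, against 45.9 and 71.4 CPM in vector cells. Kif2c, which takes microtubules apart at centromeres, had the largest ratio of this role under overexpression at 0.98, and Tpx2, the activator of Aurka on the spindle, had -0.50 under knockdown and 0.85 under overexpression. Nusap1, which bundles spindle microtubules, had a ratio of -0.25 under knockdown, the one nearest to 0 of this role.

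Central spindle and cytokinesis genes numbered 6. Ect2, which activates RhoA at the site of division, had 114 and 85.4 CPM in knockdown cells, against 176 and 182 CPM in control shRNA cells (log2 ratio -0.84, SE 0.21; -0.65 without knockdown library 2; edgeR, unadjusted p = 0.00353). It was the smallest p of the 52 in that comparison. Ect2 had 168 and 145 CPM in overexpressing cells, against 100.2 and 112 CPM in vector cells (log2 ratio 0.56, SE 0.20; 0.48 without empty vector library 1; edgeR, unadjusted p = 0.0266). The 4 knockdown and vector libraries thus lay below the 4 control shRNA and overexpression libraries. Racgap1, which binds Ect2 in the centralspindlin complex, had 469 and 160.2 CPM in knockdown cells, against 561 and 421 CPM in control shRNA cells, and knockdown library 1 lay inside the control range. Kif20a, the motor that carries the passenger complex to the central spindle, had 117 and 132 CPM in overexpressing cells, against 33.1 and 57.5 CPM in vector cells (log2 ratio 1.46, SE 0.53; 1.12 without empty vector library 1), the largest ratio of the 52. In knockdown cells Kif20a had 150.1 and 46.0 CPM, against 152 and 95.4 CPM in control shRNA cells (log2 ratio -0.34, SE 0.52; 0.28 without knockdown library 2), with libraries on both sides of control library 2. Kif20b, a motor of the midbody, had a log2 ratio of -0.57, SE 0.25 (-0.31 without knockdown library 2) under knockdown, with 56.2 and 38.1 CPM, against 78.7 and 60.8 CPM in control shRNA cells and no overlap. Prc1, which crosslinks the central spindle, and Kif23, the motor of centralspindlin, had log2 ratios of -0.52 and -0.47 under knockdown and 0.73 and 0.86 under overexpression.

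Among the 5 genes of chromosome structure and surface, Top2a, the topoisomerase that untangles sister chromatids, had 567 and 316 CPM in knockdown cells, against 698 and 599 CPM in control shRNA cells (log2 ratio -0.56, SE 0.30; -0.20 without knockdown library 2). It had 598 and 600.0 CPM in overexpressing cells, against 286 and 407 CPM in vector cells (log2 ratio 0.79, SE 0.30; 0.56 without empty vector library 1), and neither comparison overlapped. Mki67, the Ki-67 protein that coats mitotic chromosomes and the usual marker of dividing cells, had 369 and 116 CPM in knockdown cells, against 452 and 278 CPM in control shRNA cells (log2 ratio -0.59, SE 0.57; 0.017 without knockdown library 2). The knockdown libraries stood on both sides of control library 2. Mki67 had 292 and 341 CPM in overexpressing cells, against 102 and 234 CPM in vector cells (log2 ratio 0.91, SE 0.57; 0.44 without empty vector library 1), with no overlap. Ncapg and Ncaph, subunits of the condensin complex that compacts chromosomes, had the largest and the smallest ratio of this role under overexpression. Ncapg had 153 and 114 CPM in overexpressing cells, against 48.4 and 86.2 CPM in vector cells (log2 ratio 0.99, SE 0.31; 0.63 without empty vector library 1), and Ncaph had 104 and 87.7 CPM in overexpressing cells, against 74.5 and 83.7 CPM in vector cells (log2 ratio 0.28, SE 0.27; 0.20 without empty vector library 1). The difference between those genes was not tested. Cdca2, which brings a phosphatase to chromatin at mitotic exit, had log2 ratios of 0.94 (SE 0.30; 0.73 without empty vector library 1) under overexpression and -0.59 (SE 0.30; -0.25 without knockdown library 2) under knockdown, with 71.2 and 59.6 CPM in overexpressing cells, against 28.5 and 39.5 CPM in vector cells.

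Gaps between the 2 libraries of a group were wider for the 52 genes than for all genes, in the median, in every group, and most so in the knockdown and vector groups. The median absolute difference between the 2 knockdown libraries was 0.91 (log2) over the 52 genes and 0.40 over all genes, and between the 2 vector libraries 0.81 and 0.32. The overexpression libraries differed by 0.26 and 0.25, and the control shRNA libraries by 0.35 and 0.25. Library 1 was the higher of the knockdown pair in 51 of the 52 genes, Pbk being the other, and library 2 was the higher of the vector pair in 50, all but Cdk1 and Cdca5. Library 1 was also the higher of the control shRNA pair in 50 of the 52 genes and of the overexpression pair in 42. Over all 8 libraries the highest stood over the lowest by a median of 2.96-fold in the 52 genes and 1.95-fold in all genes. Without knockdown library 2 and empty vector library 1 these were 1.66-fold and 1.69-fold. Empty vector library 1 was the lowest library in 41 of the 52, and overexpression library 1 and control shRNA library 1 were the highest in 26 and 22.

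Other lists of cell cycle genes are given for comparison, and edgeR called 0 genes of any of them at the adjusted threshold, as it called 0.0% of all genes. Of 84 other mitotic genes, 78 were negative under knockdown (median log2 ratio -0.38) and 77 positive under overexpression (median 0.59). At an unadjusted edgeR p under 0.05, 2 of the 84 were lower under knockdown, against 1.61% of all genes. At that level 17 of the 84 were higher under overexpression, against 3.53% of all genes. Pkmyt1 had the smallest p of these under knockdown and Kif18a under overexpression. The 40 DNA replication genes had medians of -0.30 and 0.42, with 2 lower under knockdown and 5 higher under overexpression, beside the same shares of all genes. DESeq2 called 0 of the 40 in either comparison, against 0.124% and 0.00825% of all genes. By library their medians relative to the control shRNA mean were -0.05 and -0.58 in the knockdown libraries, against 0.18 and -0.20 in the control shRNA libraries, and 0.12 and 0.07 in the overexpression libraries, against -0.37 and -0.35 in the vector libraries. The 14 core subunits of the anaphase-promoting complex, whose RNA is made throughout the cell cycle, had medians of 0.01 and 0.22, the 13 genes of cohesin and its regulators -0.12 and -0.03, and the 24 G1 cyclin, E2F and Rb family genes -0.21 and 0.05. Esco2, the cohesin acetyltransferase of S phase that works with sororin, had 65.0 and 51.6 CPM in overexpressing cells, against 26.1 and 23.8 CPM in vector cells (log2 ratio 1.22, SE 0.29; edgeR, unadjusted p = 0.00316). Of the inhibitors of cyclin-dependent kinases, 5 of 7 had a row, with median log2 ratios of -0.34 under knockdown and 0.31 under overexpression. Cdkn2c had 78.5 and 62.4 CPM in overexpressing cells, against 22.0 and 24.8 CPM in vector cells (log2 ratio 1.59, SE 0.51). Cdkn1c, of the same list, had 6.75 and 5.42 CPM in knockdown cells, against 10.1 and 10.4 CPM in control shRNA cells (log2 ratio -0.75, SE 0.32). Cdkn1a, the p21 protein that holds cells in G1, was chosen after its values were seen. It was the 1 of the 5 with a positive log2 ratio of vector to control shRNA cells (1.22, SE 0.66), where the median of the 5 was -0.93. Cdkn1a had 76.1 and 156 CPM in overexpressing cells, against 295 and 71.5 CPM in vector cells, the 295 CPM in empty vector library 1 (log2 ratio -0.66, SE 0.65; edgeR, unadjusted p = 0.342). It had 56.0 and 101 CPM in knockdown cells, the 101 CPM in knockdown library 2, against 58.0 and 98.9 CPM in control shRNA cells (log2 ratio -0.0035, SE 0.65). Any part of Cdkn1a in the levels of the 52 genes was not tested. No test of these lists against each other was made.

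**Figure D5:**
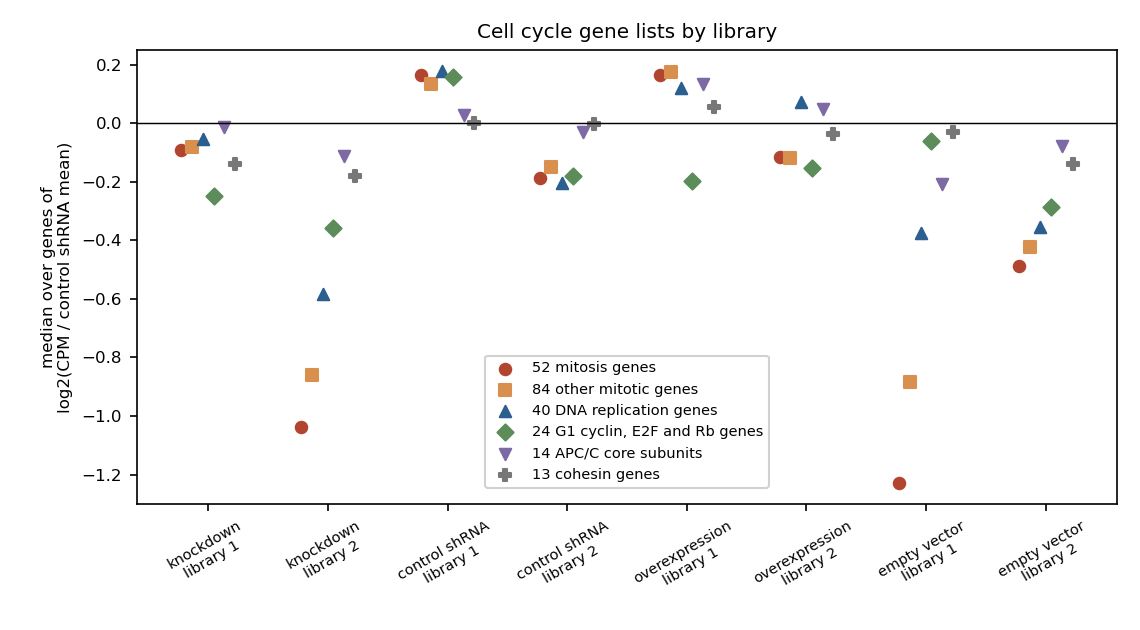
Median over genes of log2(CPM over the control shRNA mean) (y axis) in each library (x axis) for the 52 mitosis genes and 5 other lists of cell cycle genes. The mitosis genes stand at -1.04 in knockdown library 2 and -1.23 in empty vector library 1, the DNA replication genes at -0.58 and -0.37 there, and cohesin genes at -0.18 and -0.03.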

How the data were processed

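The deposited tables hold raw read counts for each gene, as whole numbers, and FPKM values that the authors made from them: FPKM equalled count over length and library total, within 0.01, in 12615 of 12615 genes with a count in every library. Tools named in the submitters' processing notes are HISAT2, HTSeq, Trimmomatic, Cufflinks and DESeq, with build mm10; no source used here gives versions, roles or the strand setting. Libraries were poly(A)-selected with a stranded kit from TRIzol RNA, per the labels' protocols. Columns were assigned by the role in their names, with AK read as the target, which the labels do not explain, and 0 were left unused. Counts were filtered with filterByExpr (minimum count 10), TMM-scaled (factors 0.955 to 1.05) and tested with edgeR's quasi-likelihood F-test over 4 groups in 1 model (4 residual and 3.85 prior degrees of freedom, biological coefficient of variation 28.0%), with Benjamini-Hochberg adjustment over all 12115 genes. DESeq2, other scalings, no filter, the 2 groups alone, the column number as a block and leaving out each library were alternatives. For log2 values of lists by library 0.125 CPM was added to each level. Gene positions and promoters are from RefSeq (GRCm38.p6). Log2 ratios were named for 14 core genes, the 8 genes of smallest p in each comparison and the extremes of each role. Some other genes of a role or of a further list were named beside them. The list, the roles and the further lists were chosen with earlier results of these data known. Software was R 4.3.3, edgeR 4.0.16, DESeq2 1.42.0, pandas 2.3.3 and matplotlib 3.10.9.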

Additional observations from a re-analysis of the deposited data

How the results depend on the processing

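The count of mitosis genes called by edgeR was 0 in all 4 comparisons under every scaling, filter and block tried and with only the 2 compared groups. Of all genes edgeR called 128 of 11865 in the vector comparison with its 2 groups alone, and 3 of 16608 there without the filter. In the overexpression comparison with its 2 groups alone it called 1 of 11831, and 0 in the other fits of these kinds. DESeq2 called 6 mitosis genes in the vector comparison, where 0.685% of all genes were called lower. In the difference DESeq2 called 1, where 0.066% of all genes were called higher. Leaving out each library in turn, the median log2 ratio ranged from -1.05 to -0.091 for knockdown, from 0.46 to 1.29 for overexpression and from -1.23 to -0.49 for the vector, and the median difference from 0.89 to 1.86. The extremes of knockdown came without knockdown library 1 and library 2, and those of the vector comparisons without vector library 1 and library 2. A group left with 1 library was assumed to vary like the others. Under knockdown 6 of the 21 genes named as core genes or for a small p changed sign with a library left out. Cdk1 ranged from -0.44 to 0.0020, Cenpa from -1.57 to 0.13 and Bub1b from -1.21 to 0.0048. Cdc20 ranged from -1.03 to 0.061, Cdca5 from -0.84 to 0.033 and Mki67 from -1.66 to 0.017. Genes named for other reasons are not in that count, such as Tpx2 at 0.046 and Kif23 at 0.013 without knockdown library 2. Of all 52 genes, 17 were positive without knockdown library 2. Without both knockdown library 2 and empty vector library 1, chosen after seeing the data, the median difference was 0.56, and Cenpa stood at 0.13, Bub1b at 0.0040, Cdc20 at 0.060, Cdca5 at 0.032 and Mki67 at 0.017 under knockdown. The cause was not tested beyond the libraries named. The labels give no replicate numbers, and the columns share only a number. With it as a replicate block the medians were -0.51, 0.76, -0.76 and 1.32 in the knockdown, overexpression, vector and difference fits, with 0 called in each and 4, 14, 15 and 23 genes at an unadjusted p under 0.05, against 2.41%, 6.89%, 11.0% and 6.09% of all genes. Deviations of same-numbered libraries correlated at 0.36 for knockdown and control shRNA, -0.22 for overexpression and vector and -0.12 for vector and control shRNA. Library scaling moved the median of all genes by under 0.1 (log2).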
